A study of Mus musculus with 12 samples.

Results

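SREBP sensing and processing is the step at which an animal cell reads its own cholesterol and decides whether to make and import more. The 8 genes described here, Srebf1, Srebf2, Scap, Insig1, Insig2, Mbtps1, Mbtps2 and Rnf139, encode that machinery. They were chosen by name, as the SREBP factors with their escort, anchors, proteases and a sterol-linked ubiquitin ligase, and all 8 were found among the 24421 genes of the table. Whole adrenal glands of 2-month-old female mice, on a mixed sv129-C57BL/6 background, were profiled by sequencing of polyA-selected RNA, with 4 libraries in each of 3 groups. Both cKO groups and, per the labels, the controls carried a Cre recombinase expressed from the Cyp11b2 (aldosterone synthase) locus, which recombines steroid-producing cells of the cortex and leaves medulla, vessels, immune cells and capsule unrecombined. Abcg1 cKO mice had both Abcg1 alleles floxed around exon 3, Abca1 cKO mice had both Abca1 alleles floxed, and control mice had the Cre alone per the labels, while the methods also allow littermates with a single conditional allele and do not say whether these carried the Cre. Control and Abca1 cKO libraries were pooled into a combined group of 8, against which the 4 Abcg1 cKO libraries were set.

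SREBP1 and SREBP2 are made as precursors held in the membrane of the endoplasmic reticulum, bound to SCAP. When sterols are plentiful, INSIG1 and INSIG2 hold SCAP in that membrane. When sterols fall, SCAP carries the precursor to the Golgi in COPII vesicles, where the site-1 protease (Mbtps1) and the site-2 protease (Mbtps2) cut it in turn and free the part that enters the nucleus. SREBP2 mainly drives genes of cholesterol synthesis and uptake, and SREBP1c mainly genes of fatty acid synthesis. INSIG1 is itself an SREBP target and thereby closes a feedback loop. In the adrenal cortex, cholesterol is also the substrate of every steroid.

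Sequences before the start of transcription are shown for Insig1 and Srebf2, which had the largest ratios of the 8 genes, and for start 3 of Srebf1, whose window held the most matches among the 3 starts of that gene. They are the 250 bases before the start in RefSeq for GRCm38.p6, which is the build the files use (mm10), written 5′ to 3′ on the strand of the gene, with capitals for the motif matches named further on. The windows lie at chr5:28071162-28071411 for Insig1 and chr15:82147019-82147268 for Srebf2, both on the plus strand, and at chr11:60210472-60210721 on the minus strand for Srebf1.
Insig1: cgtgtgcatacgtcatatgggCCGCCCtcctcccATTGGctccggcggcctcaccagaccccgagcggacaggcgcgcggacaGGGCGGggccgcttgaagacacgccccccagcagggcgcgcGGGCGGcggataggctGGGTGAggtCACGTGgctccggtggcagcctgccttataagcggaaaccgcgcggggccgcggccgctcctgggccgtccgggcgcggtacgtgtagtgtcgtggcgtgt
Srebf2: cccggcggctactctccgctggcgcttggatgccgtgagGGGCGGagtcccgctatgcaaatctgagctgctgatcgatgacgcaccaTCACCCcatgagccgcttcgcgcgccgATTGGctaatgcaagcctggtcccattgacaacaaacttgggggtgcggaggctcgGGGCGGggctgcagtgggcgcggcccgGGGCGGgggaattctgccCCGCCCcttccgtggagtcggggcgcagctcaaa
Srebf1: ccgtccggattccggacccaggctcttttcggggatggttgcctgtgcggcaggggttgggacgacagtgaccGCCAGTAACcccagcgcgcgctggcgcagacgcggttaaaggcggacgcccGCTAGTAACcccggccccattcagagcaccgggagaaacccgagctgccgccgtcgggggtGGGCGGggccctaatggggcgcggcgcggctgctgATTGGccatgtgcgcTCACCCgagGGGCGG

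The values are the authors' mean normalized counts of each group, counts per gene divided by size factors and averaged over libraries. The table also holds the authors' standard errors and columns of single libraries. The former belong to the authors' own test and the latter could not be tied to the labels, and neither was used. The means are therefore given with no spread between animals. No difference given here was tested and none has a replicate check. Control and Abca1 cKO cannot be told apart in the combined mean, and the depth of single libraries is unknown. The methods name both NovaSeq and NextSeq sequencers, and how the groups were split over them is not known here. Rn45s, a ribosomal RNA precursor, had means of 645560 in the combined group and 116180 in Abcg1 cKO. Whether the libraries differed technically was not tested. A ratio is Abcg1 cKO over combined, on the scale log2(mean + 1). Ratios were computed over the 14344 genes with a combined mean of 10 or more, which included all 8 members. A gene was counted as past the fold when its mean differed by 1.2-fold or more, the threshold of the study's methods. Of all these genes, 1448 (10.1%) lay past the fold upward and 1829 (12.8%) downward, and the median log2 ratio was -0.0006. With both groups scaled to the same total, which was added after the data had been seen, 1132 lay past it upward and 2288 downward. The targeted gene itself, counted over its whole length, had means of 305.4 and 249.7, combined group first (log2 ratio -0.29). That count includes exons that the Cre leaves in place and cells that it does not reach.

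Insig1 stood apart from the other 7 genes. Its mean normalized count was 1303 over the combined libraries and 2687 over those of Abcg1 cKO, a ratio of 2.06. Srebf2 followed with a ratio of 1.25, and these were the only members past the fold, 2 of 8 upward against a background of 10.1%, with none of 8 downward. The other 6 genes lay between ratios of 0.954 and 1.16. The median log2 ratio of the 8 was 0.06. In whole glands, more cells of a type and more RNA per cell cannot be told apart.

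**Figure D1:**
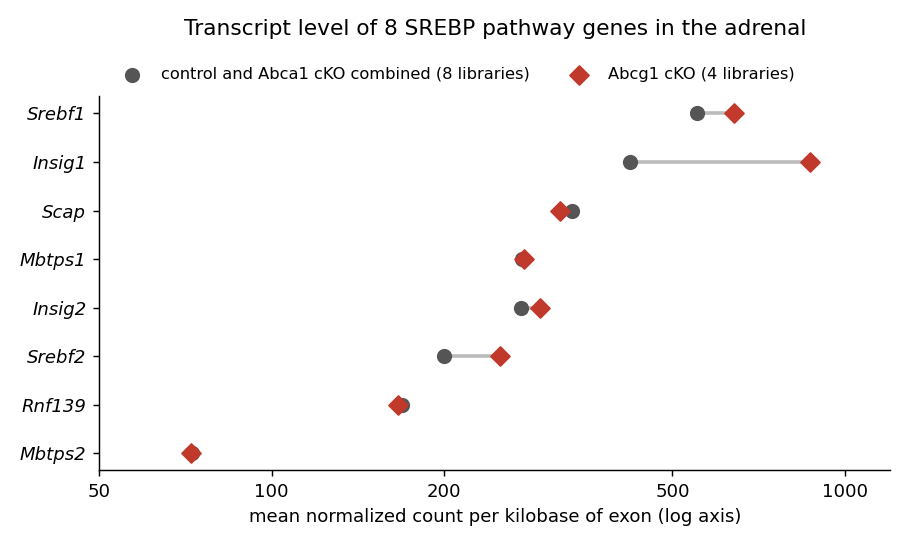
Mean normalized count per kilobase of exon (log axis) of the 8 SREBP sensing and processing genes. Grey circles are the authors' mean of 8 control and Abca1 cKO libraries combined, red diamonds their mean of 4 Abcg1 cKO libraries, and no spread is shown because only group means were used. Insig1 is at 421 in the combined group and 869 in Abcg1 cKO, above Srebf1 in the latter, while the symbols of Mbtps1, Mbtps2 and Rnf139 nearly coincide.

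The transcription factors come first in the pathway. Srebf2, which encodes SREBP2, lies on chromosome 15 from 82147269 to 82205379 in GRCm38.p6, the build of all positions given here. Its mean was 1434 in the combined group and 1798 in Abcg1 cKO, a log2 ratio of 0.33, at percentile 92.8 of all genes. Srebf1, which encodes SREBP1a and SREBP1c from separate starts, lies on chromosome 11 from 60199084 to 60224186. It had a mean of 3110 in the combined group and 3604 in Abcg1 cKO, a log2 ratio of 0.21, at percentile 86.7 and short of the fold. A count over the whole gene adds the SREBP1a and SREBP1c transcripts together. Both genes had higher means in Abcg1 cKO, and per kilobase of exon Srebf1 was 2.76 times Srebf2 in the combined group and 2.56 times in Abcg1 cKO.

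Scap, the escort and sterol sensor, lies on chromosome 9 from 110333288 to 110384949 and had the lowest ratio of the 8. Its mean was 2488 in the combined group and 2372 in Abcg1 cKO, a log2 ratio of -0.07, at percentile 35.7. The escort had a slightly lower mean in Abcg1 cKO, and both of its cargo genes had higher ones. Per kilobase of exon, Srebf2 stood at 0.598 of Scap in the combined group and at 0.785 in Abcg1 cKO. For Srebf1 the same quotient was 1.65 and 2.01.

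The anchors differed from each other. Insig1, on chromosome 5 from 28071412 to 28078662, had a log2 ratio of 1.04, at percentile 99.5. Insig2, its homolog on chromosome 1 from 121304353 to 121332662, had means of 945.4 in the combined group and 1020 in Abcg1 cKO, a log2 ratio of 0.11, at percentile 74.0. Insig2 is the anchor that is known to be controlled less by sterols than Insig1. Per kilobase of exon, Insig1 was 1.55 times Insig2 in the combined group and 2.96 times in Abcg1 cKO. Against Scap, whose product the anchors bind, Insig1 stood at 1.26 times in the combined group and 2.73 times in Abcg1 cKO. For Insig2 the same quotient was 0.814 and 0.922. In level per kilobase Insig1 ranked below Srebf1 in the combined group, with 421 against 552, and above it in Abcg1 cKO, with 869 against 640. From high to low, the rest followed in the combined group as Scap, Mbtps1, Insig2, Srebf2, Rnf139 and Mbtps2, and in Abcg1 cKO as Scap, Insig2, Mbtps1, Srebf2, Rnf139 and Mbtps2. Without a spread, which neighbors in this order differ beyond error is unknown. Exon bases were joined over all annotated transcripts of a gene, from 3093 for Insig1 to 10539 for Mbtps1. The transcripts present in the gland may be shorter, so the order and quotients between genes also depend on the annotation.

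The proteases and the ubiquitin ligase had nearly equal means in both groups. Mbtps1, on chromosome 8 from 119508151 to 119558864, encodes the site-1 protease and had means of 2882 and 2904, combined group first, a log2 ratio of 0.01. Mbtps2, on chromosome X from 157547822 to 157598715, encodes the site-2 protease and had means of 735.2 and 732.1, a log2 ratio of -0.01. Rnf139, on chromosome 15 from 58889229 to 58902390, encodes a ubiquitin ligase of the endoplasmic reticulum linked to sterol-driven degradation, and had means of 862.2 and 848.8, a log2 ratio of -0.02. Their percentiles were 52.8, 48.7 and 45.1, near the middle of all genes. With both groups scaled to the same total the ratio of Mbtps1 changed sign, to -0.03. Per kilobase, Mbtps1 was 3.76 times Mbtps2 in the combined group and 3.8 times in Abcg1 cKO.

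Some of these counts rest on exons shared with other genes. In GENCODE M21, which may differ from the gene models the authors counted on, 28.4% of the exon bases of Mbtps2 overlapped Yy2 on the same strand. For Rnf139, 22.3% overlapped Tatdn1 on the opposite strand, and for Scap 13.2% overlapped 5830462I19Rik, also opposite. The methods name a stranded library preparation. No strand setting for the counting was given in the sources used here, and reads in these stretches are uncertain. Insig1, Insig2, Srebf2 and Mbtps1 shared no exon base with another gene, and Srebf1 shared 1.93% with Rai1 and 1.17% with Mir6922.

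**Figure D2:**
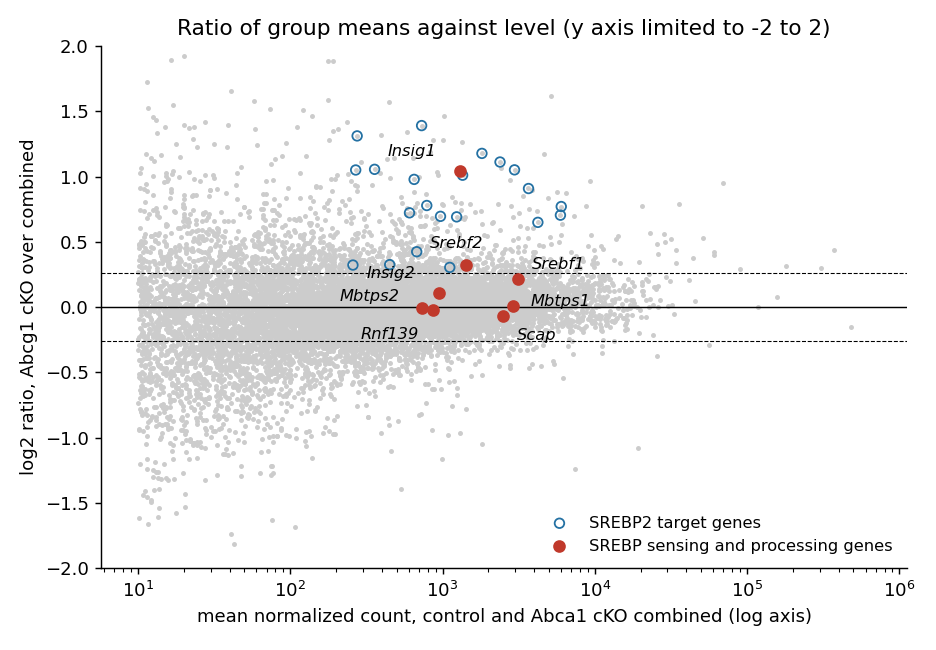
The log2 ratio of group means, Abcg1 cKO over combined, against the mean normalized count of the combined group (log axis) for 14344 genes (grey). Red points are the 8 SREBP sensing and processing genes, blue circles 21 SREBP2 target genes, and dashed lines the fold of 1.2. Insig1 lies among the SREBP2 targets at 1.04, Srebf2 sits just above the upper line, and the other 6 members lie between the lines.

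Insig1 was exceeded in ratio by 76 of 14344 genes, of which 7 were in the list of textbook SREBP2 targets. Among the 4160 genes with a combined mean of 1000 or more, 10 exceeded it, of which 3 were SREBP2 targets. Of the 10 adipocyte markers described further on, 5 also exceeded Insig1, and 2 of these were among the genes with a combined mean of 1000 or more. Srebf2 was exceeded by 1036 genes and Srebf1 by 1904, and Scap, at the other end of the 8, by 9230.

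Set beside SREBP2 targets, Insig1 had a ratio in the upper part of their range. Srebf2 exceeded 3 of them, and the other 6 members lay below all. All 21 measured targets of cholesterol synthesis and uptake lay past the fold upward, beside 10.1% of all genes. With both groups scaled to the same total, 20 of them did. This list and that of SREBP1 targets below were chosen with earlier results of these data known. The 21 had a median log2 ratio of 0.78 and a range from 0.30 to 1.39. Of the 21, 7 had a higher ratio than Insig1 and 14 a lower one. Hsd17b7, a reductase of cholesterol synthesis, had the largest ratio (log2 ratio 1.39), followed by Idi1, the isopentenyl diphosphate isomerase, at 1.31. Stard4, a sterol carrier, had means of 358 and 746, combined group first (log2 ratio 1.06). The lowest of the list was Ebp, a sterol isomerase, at 0.30, and Srebf2 stood at 0.33.

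SREBP1 targets had smaller ratios. The list holds 17 genes, mostly of fatty acid synthesis. Of these, 14 lay past the fold upward (13 with both groups scaled to the same total) and none downward. Of all genes, 10.1% lay past it upward and 12.8% downward. The median log2 ratio of the list was 0.37. Pnpla3, a lipase-family gene driven by SREBP1c, had the largest ratio with means of 128 and 285, combined group first (log2 ratio 1.16), followed by Thrsp, a lipogenic cofactor, at 0.72 and Fads2, a fatty acid desaturase, at 0.56. Fasn, the fatty acid synthase, had a log2 ratio of 0.44, Acaca, the acetyl-CoA carboxylase, 0.31, and Scd1, a desaturase, 0.17. Srebf1 itself, at 0.21, lay below the median of this list. Srebf1 is also a target of the sterol receptor LXR and stands in that list too, as Scd1 and Scd2 do. The 10 measured LXR targets had a median of 0.19. Of them, 2 lay past the fold upward and 1 downward, beside 10.1% and 12.8% of all genes. Those past the fold were Scd2 at 0.56 and Abca1 at 0.37, which is floxed in 4 of the 8 combined libraries, and downward Abcg1 at -0.29.

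**Figure D3:**
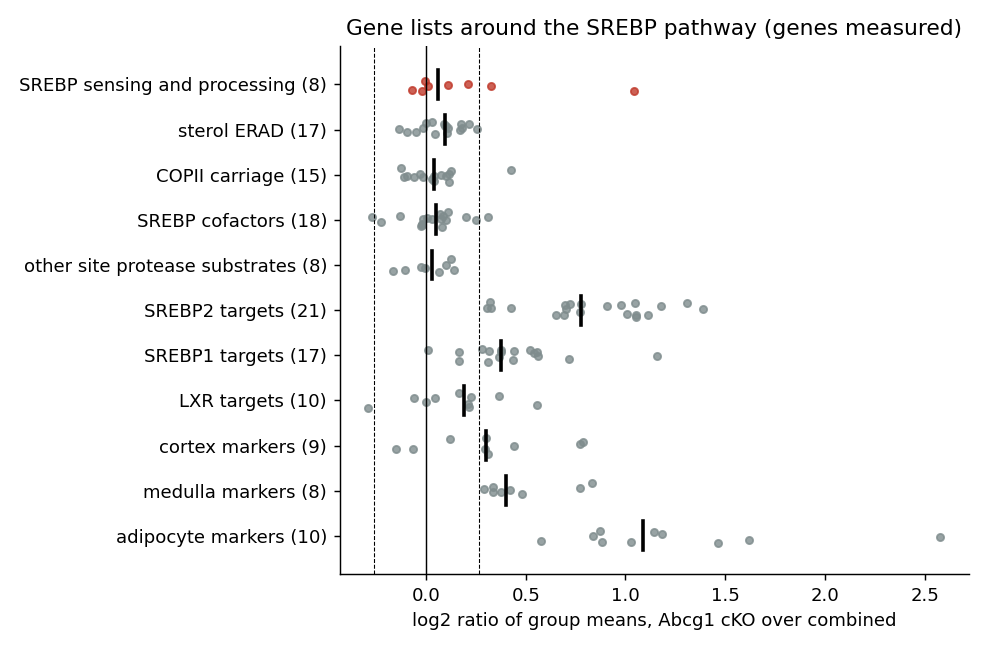
The log2 ratio of group means, Abcg1 cKO over combined, for each measured gene of 11 lists, with the number of genes in parentheses. Points are genes, black bars list medians and dashed lines the fold of 1.2. The 4 lists of transport, degradation, cofactors and other protease substrates have medians from 0.03 to 0.09, while SREBP2 targets sit at 0.78 and adipocyte markers at 1.09.

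The wider machinery around SCAP and INSIG is described by short lists. Over all genes, 10.1% lay past the fold upward and 12.8% downward, and at these shares such lists would hold few genes past it. None of 17 listed genes of degradation, most of them acting at the endoplasmic reticulum, lay past the fold, and their median log2 ratio was 0.09. With a fold of 1.1, 5 of the 17 were higher, as were 3101 of all 14344 genes. The list includes Fbxw7, a ligase subunit that acts on nuclear SREBP and is also counted among the accessory factors below. March6, a ubiquitin ligase that acts on squalene epoxidase, had a log2 ratio of 0.22, and Vcp, the ATPase that extracts ubiquitinated proteins from the membrane, 0.18. Of 15 genes of the COPII coat and Golgi anchoring, 1 lay past the fold upward and none downward, with a median of 0.04. That gene was Paqr3, a Golgi protein that tethers SCAP, at means of only 39.5 and 53.4 (log2 ratio 0.43). Sec16a and Sec24a, which act at COPII budding sites, had log2 ratios of 0.12 and -0.12.

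Among 18 accessory and nuclear factors of SREBP, 1 lay past the fold upward and 1 downward, with a median log2 ratio of 0.05. Over all genes the shares were 10.1% upward and 12.8% downward. Lpin1, a phosphatidate phosphatase that also restrains nuclear SREBP, had means of 648 and 803 (log2 ratio 0.31). It is also counted in the list of SREBP1 targets. Nfyb, a subunit of the NF-Y factor that binds beside SREBP, had means of 480 and 398 (log2 ratio -0.27), and Sirt1, a deacetylase, a log2 ratio of 0.25. None of 8 other membrane proteins cut by the site proteases, among them Atf6, lay past the fold, and their median was 0.03. Within this list the widest ratios were -0.16 for Creb3l4, 0.14 for Creb3l1 and 0.12 for Creb3l2. A further substrate of the list, Creb3l3, had a combined mean under 10.

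Motifs were searched by letters on both strands of the 250 bases before each start that had a RefSeq window. Such windows were found for 7 members with 12 starts, and Rnf139 had none. For Srebf1, Insig2 and Mbtps1 the outermost of these starts lies inside the gene's full extent as given above, so these windows need not cover every start. The core of the sterol regulatory element, TCACNCCAC, matched in no window of the 7 members and in 1.05% of 32817 windows over all genes. A shorter form of it, TCACCC, was added after the sequences had been seen. It matched in the windows of Insig1, Srebf2, start 3 of Srebf1 and starts 2 and 3 of Insig2, and in 13.8% of all windows. In the Insig1 window printed above it lies on the opposite strand from -110 to -105, and an E-box, CACGTG, follows from -101 to -96. The E-box was found in 6.02% of all windows, and apart from Insig1 only start 2 of Scap held it among the members.

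In the Srebf2 window the short sterol form lies from -162 to -157, followed by an NF-Y box, which is CCAAT or its complement, from -135 to -131. Insig1 has an NF-Y box from -216 to -212, and start 3 of Srebf1 has it from -30 to -26, next to a short sterol form from -15 to -10. NF-Y boxes were found in 33.8% of all windows, and GC boxes, GGGCGG, in 32.7%. Start 3 of Srebf1 also held 2 matches to a core of the LXR element, GTTACTNGC, on the opposite strand, from -177 to -169 and from -126 to -118. This motif, also added after the sequences had been seen, matched in 0.283% of all windows and in no other window of the members. None of the matches overlapped another. A match is a run of letters and was not tested for binding. The window of Mbtps2 and the first of Scap held no match, and that of Mbtps1 held a GC box alone.

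**Figure D4:**
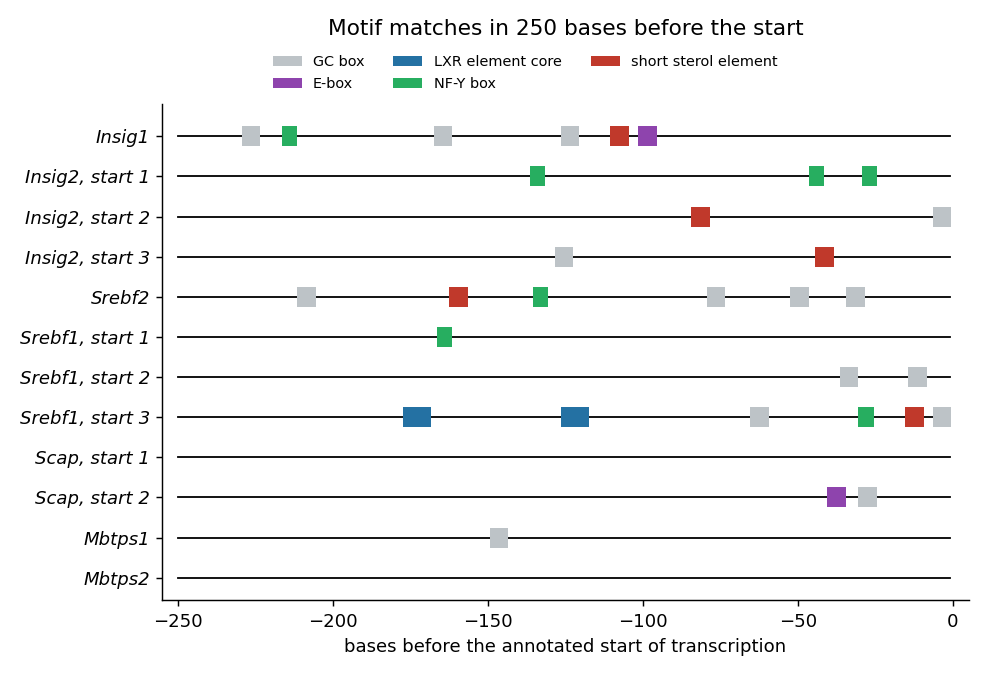
Matches to 5 motifs in the 250 bases before 12 RefSeq starts of 7 members, by distance from the start in bases. Lines are windows and blocks are matches on either strand. The short sterol element lies in 5 of the 12 windows, next to the E-box in Insig1, and the LXR element core only in start 3 of Srebf1.

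Markers of cell types within and around the gland also had unequal means. Of all genes, 10.1% lay past the fold upward and 12.8% downward. All 10 adipocyte markers lay past it upward, with a median log2 ratio of 1.09. Their summed means were 21280 in the combined group against 46910 in Abcg1 cKO. Adipoq, the adiponectin gene, had means of 1019 and 2818, combined group first (log2 ratio 1.47). Adipocytes also express Srebf1, Insig1 and the fatty acid synthesis genes, and the part of these markers in the values of the members was not tested. The labels describe glands cleaned of adherent fat. All 8 medulla markers lay past the fold upward, with a median of 0.40, and so did 6 of 9 cortex markers, with a median of 0.30. Defining genes of the cortex were abundant in both groups, with Star, which moves cholesterol into mitochondria, at means of 374521 and 507891, combined group first. Hsd3b1, the cortex marker with the highest combined mean, went the other way, with means of 482180 and 434588 (log2 ratio -0.15). Of the 9 cortex markers, 7 had log2 ratios above 0.

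Liver transcripts had lower means in Abcg1 cKO. Alb, the albumin gene of hepatocytes, had means of 781 and 62.1, combined group first (log2 ratio -3.63), Apoa1 means of 103 and 6.34, and Ttr means of 45.9 and 7.26. Hepatocytes express Insig2 and Srebf1, and the part of liver RNA in the members' values was not tested. The kidney genes Umod, Slc12a1, Kap and Aqp2 and the globin genes all had combined means under 10, and Alas2, an erythroid enzyme, had a log2 ratio of -0.20. Of 8 measured lymphocyte markers, 7 lay past the fold downward (median -0.77), with combined means of 27.5 or less. The share of all genes past it downward was 12.8%. Macrophage markers, with 1 of 9 past the fold downward and a median of -0.03, and endothelial markers, with none of 9 past the fold and a median of -0.05, had ratios near 0.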

How the data were processed

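Per the methods and processing notes, the authors trimmed reads (cutadapt 4.0), aligned them with STAR 2.7.10a on mm10, took HTSeq 0.13.5 counts of uniquely mapped reads for each gene, and normalized with DESeq2 1.38.3. The signal values used here are the mean normalized counts per group that the authors deposited. Their table also holds the authors' own log2 fold changes, standard errors and p-values for this comparison, none of which was used. A further 12 columns of single libraries could not be tied to the sample labels and were left aside. The planned limma fits were therefore not run and nothing was tested.

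Ratios were computed in Python 3.11.15 with pandas 2.3.3 as log2 of the means plus a pseudocount of 1, over genes with a combined mean of 10 or more. Levels per kilobase used the union of exons in GENCODE M21 for GRCm38, and gene positions and promoter windows came from RefSeq for GRCm38.p6. Calculations were tested on simulated means and made-up strings, without spread between animals, which checks the arithmetic only. The members and gene lists were chosen with earlier results of these data known. Named genes are the 8 members, Abcg1, Abca1 and, in each other list, the 3 with the widest ratio, of which some are not reported here. Stard4, Ebp, Fasn, Acaca, Scd1, Atf6, Rn45s and the markers Adipoq, Star, Hsd3b1 and Alas2 were named after their values had been seen. Alternatives were other pseudocounts, folds, filters and scalings.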

Additional observations from a re-analysis of the deposited data

How the results depend on the processing

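The log2 ratios of the 8 members moved by less than 0.1 under pseudocounts of 0.1 and 10, centring on the median and, added after the data were seen, scaling both groups to the same total, which lowers every log2 ratio by 0.045. Insig1 lay between 0.998 and 1.04 under these settings and Srebf2 between 0.281 and 0.326, and Mbtps1 changed sign, within the fold. All member means were 732.1 or more, so pseudocounts of this size could hardly change their ratios. Centring and scaling shift all ratios by the same amount. None of these settings bears on the spread between animals. With a fold of 1.5, 1 member was higher (Insig1), 2 SREBP1 targets were higher, and of all genes 347 were higher and 525 lower. With a fold of 1.1, 3101 of all genes were higher and 3494 lower. At the fold of 1.2, leaving out the filter on low values gave 2629 genes higher and 3587 lower, against 1448 and 1829 with it. At the same fold and with a combined mean of 50 or more, 1072 were higher and 1089 lower, out of a smaller set. No paired analysis was possible because the columns of single libraries carry no replicate number or sample label, and for the same reason no library could be left out. The planned limma fits and the count test on single libraries were not run. The depth behind each mean is unknown.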
